A study of Mus musculus with 48 samples.

Results

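Liver X receptors (LXRs), their retinoid X receptor (RXR) partners and the corepressor complex they recruit were followed through 9 genes out of the 55416 counted in each liver. The members were Nr1h3 (encoding LXRα), Nr1h2 (LXRβ), Rxra, Rxrb and Rxrg (RXRα, RXRβ and RXRγ), and Ncor1, Hdac3, Gps2 and Tbl1xr1 of the nuclear receptor corepressor complex. They were found by the Ensembl identifier of each mouse symbol, and all 9 had enough reads to be tested. The question was whether the LXRβ gene rises when LXRα is mutated or lost, and whether the partner genes keep their levels. RNA came from the livers of 48 mice in 6 groups of 8. In the knock-in line (DN), the substitution W441R was introduced by CRISPR-Cas9 into helix 12 of the LXRα ligand-binding domain in C57BL/6J embryos, and male DN:WT, DN:HET and DN:HOM mice were bred from heterozygous parents. In the knockout line (KO), LXRα-deficient mice that began on a mixed Sv129 and C57Bl/6 background had been crossed back to C57BL/6 over many generations, and KO:WT, KO:HET and KO:HOM mice were likewise bred from heterozygous parents. Every group, wild-type mice included, received a western diet for 8 weeks from about 8 weeks of age, and in the knock-in cohort 3 mice of each genotype were killed early, at 14 weeks. Both alleles are carried by every cell type of the mouse and not by hepatocytes alone. The lines were kept at different institutions, so a difference between them cannot be told apart from a difference of site.

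LXRs bind DNA as heterodimers with RXR and sense oxysterols, which are oxidised forms of cholesterol. Without ligand the heterodimer holds a corepressor complex in which NCoR1 carries the histone deacetylase HDAC3 together with GPS2 and TBL1XR1, and target genes stay low. Ligand moves helix 12 of the receptor, the corepressors leave, and coactivators take their place. In liver LXRα drives sterol export and lipogenesis, while LXRβ is expressed widely across tissues.

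The residue changed in the knock-in mice lies at the very end of LXRα, and the same end is found in LXRβ, which is why the last 60 coding bases of both genes are shown. They were read from GRCm39 on the coding (minus) strand, written 5′ to 3′, with the tryptophan codon in capitals. The Nr1h3 stretch is chr2:91014684-91014743 in exon 10 of 10, and its capitals are the codon changed by the W441R substitution, in a reading frame of 445 codons. The Nr1h2 stretch is chr7:44199412-44199471 in exon 9 of 9, and its capitals are codon 439 of 443.
Nr1h3: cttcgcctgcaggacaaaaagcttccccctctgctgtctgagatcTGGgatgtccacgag
Nr1h2: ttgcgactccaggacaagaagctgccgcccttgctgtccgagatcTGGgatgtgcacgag
The stretches share 49 of 60 bases (81.7%), and 10 of 20 codons are spelled alike. All 20 codons stand for the same amino acid in both genes, so the paralogs differ here in bases but not in the encoded helix. The bases are those of the reference genome, and the count tables do not show which allele a liver carried.

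Reads on the strand of the genes lay between 5332897 and 16961379 per liver (median 15879972), and only KO:HET animal 3 and KO:HOM animal 17 had fewer than 13876351. Each liver came from a separate mouse, and no label gives litters or days. The library labelled DN:WT animal 10 and the one labelled DN:HOM animal 12 do not appear in the study's own source data and were kept out of the main fits, which therefore held 46 livers (7 DN:WT, 7 DN:HOM and 8 in each other group). They go against their labels for the targeted gene and for cell type markers. DN:WT animal 10 had 71.3 CPM (counts per 1000000 reads, scaled by TMM) of Nr1h3, inside the range of the other DN:HOM livers, and DN:HOM animal 12 had 86.9 CPM, inside the range of the other DN:WT livers. Summed macrophage markers were 1898 CPM in DN:WT animal 10 (1268 to 2003 in the other DN:HOM livers) and 241 CPM in DN:HOM animal 12 (225 to 417 in the other DN:WT livers), and whether the libraries were exchanged was not tested. Levels and main values therefore leave them out, and values with all 48 livers follow for the members, the lists and the markers. The scale also matters for DN:HOM livers. Their 20 most abundant genes held 17.1% to 19.1% of reads, against 22.3% to 25.0% in DN:WT livers. Scaling by library size alone would raise the median of all genes to 0.42 (log2) in DN:HOM against DN:WT. Under TMM that median was -0.01, and changes below are relative to it. Against wild-type livers of the same line, 6 of the 9 members passed the test in DN:HOM (1 higher, 5 lower), where 59.1% of all genes tested passed, and 2 passed in KO:HOM (both lower), where 19.4% of all genes passed. The fit of all 48 livers called 5 members in DN:HOM and 1 in KO:HOM, where 48% and 12.9% of all genes passed, and in DN:HET 39 genes of 15621 passed in place of 361. These are edgeR quasi-likelihood tests with a Benjamini-Hochberg adjusted p under 0.05 over 15711 genes. Both shares of members are near that background, so the counts are no result about the members as a set.

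**Figure D1:**
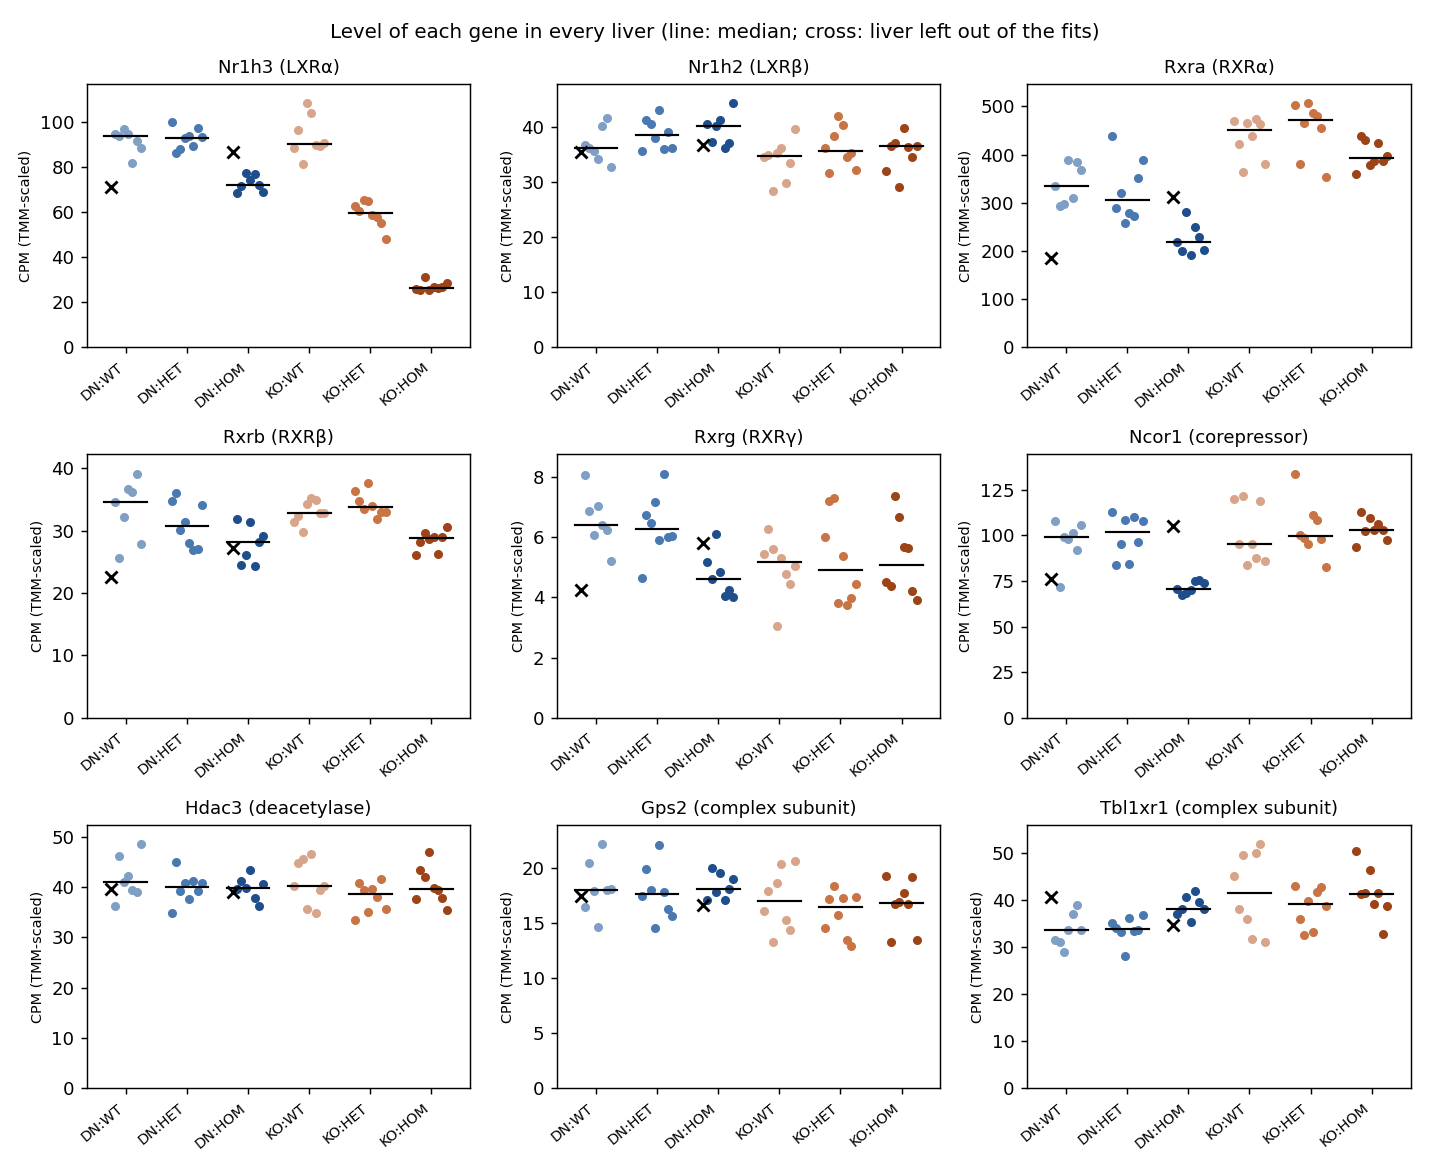
TMM-scaled CPM (y axis) of the 9 genes in every liver of the 6 groups (x axis). Points are livers in the fits, lines are their medians, and crosses are DN:WT animal 10 and DN:HOM animal 12, which were left out. Nr1h3 steps down from KO:WT to KO:HET to KO:HOM, while Nr1h2 stays between 28.3 and 44.2 CPM in all livers.

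Nr1h3, the targeted gene (ENSMUSG00000002108, chr2:91014394-91033417), was reduced most in the knockout line. KO:WT livers had 81.5 CPM at the lowest, 90.2 at the median and 108 at the highest. KO:HET livers had 48.3, 59.7 and 65.4 CPM, and KO:HOM livers 25.3, 26.4 and 31.1 CPM, in the same order. The 3 KO groups did not overlap. Nr1h3 was the single member whose KO:HOM and KO:WT ranges lay apart, as did those of 2.55% of genes tested, and likewise for KO:HET (0.0191%). On the log2 scale the fold change was -1.80 (SE 0.06, adjusted p = 3.3e-27) in KO:HOM and -0.67 (SE 0.06, adjusted p = 6.0e-11) in KO:HET. Mean levels were 28.8% and 63.3% of that in KO:WT. The knockout livers thus still held Nr1h3 reads, 134 to 470 per KO:HOM liver, and the counts are per gene, so the deleted part could not be looked at separately. Acp2, which lies on the opposite strand and shares 256 exon bases with Nr1h3, had medians of 59.4 CPM in KO:WT and 61.9 CPM in KO:HOM livers, while Gm13783, a long noncoding RNA on the same strand, stayed at or below 0.64 CPM in every liver fitted. Reads on the opposite strand of Nr1h3 numbered 146 to 211 in KO:WT and 12 to 35 in KO:HOM livers.

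In the knock-in line the transcript was kept, at a slightly lower level in homozygotes. DN:WT livers had 82.1, 93.9 and 96.9 CPM of Nr1h3 (lowest, median and highest). DN:HET livers had 86.3, 93.2 and 99.8 CPM. DN:HOM livers had 68.5, 72.2 and 77.4 CPM. DN:HET and DN:WT overlapped, and DN:HOM lay below both. The ranges of 33.5% of all genes tested also lay apart in DN:HOM and DN:WT, and for DN:HOM and DN:HET that share was not counted. In DN:HOM the log2 fold change was -0.32 (SE 0.06, adjusted p = 1.5e-05), and -0.26 (adjusted p = 0.00099) with all 48 livers, but the sign turned to 0.11 (adjusted p = 0.13) when library size alone set the scale. A measure free of scaling is the number of Nr1h3 reads per Nr1h2 read within a liver. Its median was 2.60 in DN:WT, 2.47 in DN:HET and 1.92 in DN:HOM livers, with ranges of 2.04 to 2.76 and 1.56 to 2.13 in DN:WT and DN:HOM that overlap, and with all 48 livers the medians were 2.59 and 1.92 and the ranges 2.02 to 2.76 and 1.56 to 2.37. In the KO line the ratio was 2.83 in KO:WT, 1.62 in KO:HET and 0.78 in KO:HOM livers, with no overlap between these groups. The order of Nr1h3 over all groups was KO:HOM, KO:HET, DN:HOM, KO:WT, DN:HET and DN:WT, and the last 3 overlapped one another.

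Nr1h2, the gene of LXRβ (ENSMUSG00000060601, chr7:44199036-44203406), did not pass the test in any comparison. DN:WT livers had 32.6, 36.2 and 41.6 CPM (lowest, median and highest). DN:HET livers had 35.6, 38.4 and 43.0 CPM, and DN:HOM livers 36.1, 40.1 and 44.2 CPM. The medians differ by a few CPM and the ranges overlap. In the KO line the values were 28.3, 34.6 and 39.5 CPM in KO:WT, 31.6, 35.6 and 41.9 CPM in KO:HET, and 29.1, 36.4 and 39.8 CPM in KO:HOM livers. All neighbours in the order of the groups (KO:WT, KO:HET, DN:WT, KO:HOM, DN:HET, DN:HOM) overlapped.

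The size of any rise of Nr1h2 can be bounded within the main fit under TMM, and the bound depends on that scale. In KO:HOM the log2 fold change was 0.05 (95% interval -0.09 to 0.18, adjusted p = 0.68), so the interval ended at a level 13.4% above KO:WT. In KO:HET it was 0.08 (-0.05 to 0.22, adjusted p = 0.86). In DN:HOM it was 0.12 (-0.03 to 0.26, adjusted p = 0.15), an upper end 19.9% above DN:WT, and in DN:HET 0.07 (-0.07 to 0.21, adjusted p = 0.74). With all 48 livers it was 0.10 (adjusted p = 0.21) in DN:HOM and 0.08 (adjusted p = 0.98) in DN:HET. The intervals thus hold both no change and a small rise. The DN:HOM estimate passed the threshold under upper-quartile scaling (0.20, adjusted p = 0.016), with each line fitted alone (0.16, adjusted p = 0.039) and with library size alone (0.55, adjusted p = 2.1e-07), where the median of all genes was itself 0.42. The homozygous effects on Nr1h2 differed by 0.07 between the lines (-0.13 to 0.27, adjusted p = 0.61). A transcript level does not give the amount or activity of LXRβ protein.

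**Figure D2:**
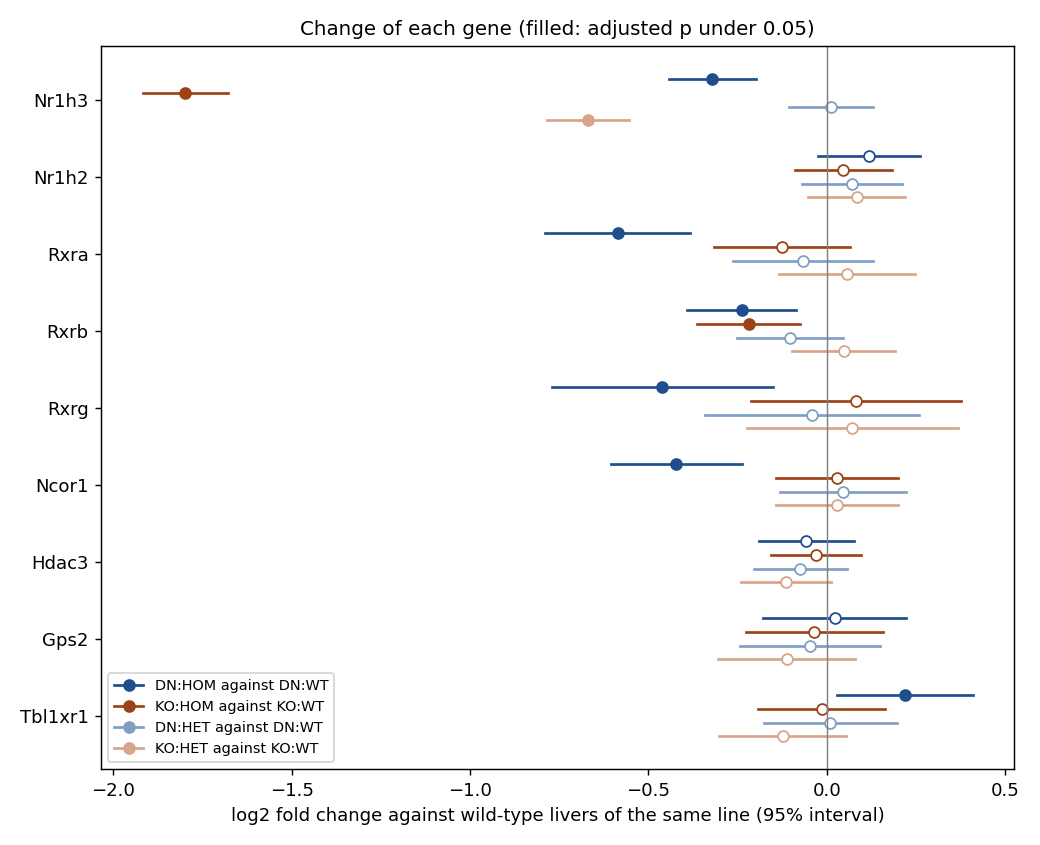
Log2 fold change (x axis) of each gene (y axis) in heterozygous and homozygous livers against wild-type livers of the same line, with 95% intervals. Filled points passed the test. Nr1h3 stands at -1.80 in KO:HOM and -0.32 in DN:HOM, and the 4 intervals of Nr1h2 all cover 0.

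Levels of the paralogs were compared per kilobase of merged exons, since the genes differ in length. In KO:WT livers Nr1h3 had a mean of 18.5 ± 1.74 CPM per kb and Nr1h2 9.80 ± 1.02 (SD, n = 8). In KO:HOM livers Nr1h3 had 5.34 ± 0.393 CPM per kb and Nr1h2 10.2 ± 0.953 (SD, n = 8), so Nr1h2 became the higher of the pair. Nr1h2 made up a median of 34.1% of the LXR transcripts in KO:WT, 47.4% in KO:HET and 65.2% in KO:HOM livers. In the knock-in line its share was 36.0% in DN:WT, 37.1% in DN:HET and 43.2% in DN:HOM livers (36.1% in DN:WT and 43.2% in DN:HOM with all livers as labelled). Nr1h3 was the more abundant LXR transcript in every group but KO:HOM on this scale. With the length of the canonical transcript in place of merged exons, the shares were lower throughout (26.3% in KO:WT, 56.4% in KO:HOM and 34.5% in DN:HOM livers) and their order was the same.

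**Figure D3:**
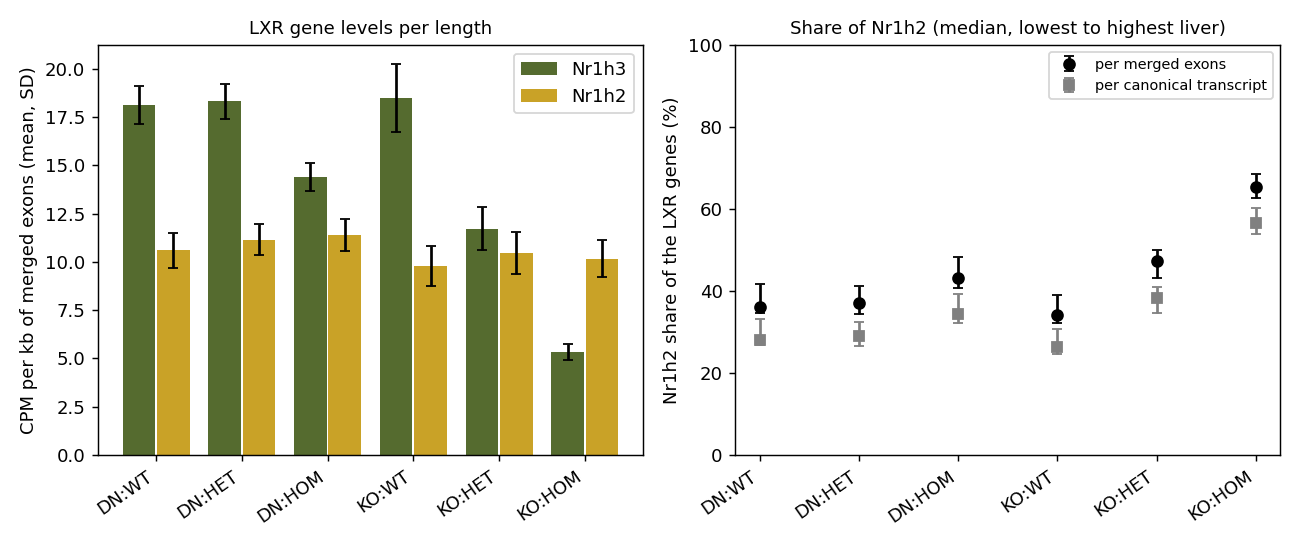
Left, mean CPM per kb of merged exons of Nr1h3 and Nr1h2 (y axis) in the 6 groups (x axis), with SD over 7 or 8 livers. Right, the share of Nr1h2 in the LXR genes as median with lowest and highest liver, per merged exons and per canonical transcript. The share is 65.2% in KO:HOM and 34.1% in KO:WT livers per merged exons.

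Rxra, the main hepatic RXR gene (ENSMUSG00000015846, chr2:27566452-27653330), fell in DN:HOM livers. Its level in DN:WT livers was 293, 335 and 388 CPM (lowest, median and highest). DN:HET livers had 257, 305 and 439 CPM, and DN:HOM livers 192, 218 and 280 CPM. Each DN:HOM liver of the fits lay below each DN:WT liver, as Nr1h3 and 33.5% of all genes tested also did in one direction or the other, while DN:HET overlapped both groups. The log2 fold change was -0.59 (SE 0.10, adjusted p = 3.3e-06), or -0.44 (adjusted p = 0.0017) with all 48 livers, and -0.16 (adjusted p = 0.14) with library size alone. Reads of Rxra per read of Hdac3 within a liver had medians of 7.88 in DN:WT and 5.51 in DN:HOM livers, with ranges of 6.34 to 9.87 and 4.42 to 7.02 that overlap. With all 48 livers the medians were 7.72 and 5.90 and the ranges 4.70 to 9.87 and 4.42 to 8.03. KO:WT livers had 363, 451 and 473 CPM, KO:HET 354, 473 and 507, and KO:HOM 359, 392 and 438. These ranges overlapped, with a log2 fold change of -0.13 in KO:HOM (-0.32 to 0.06, adjusted p = 0.38). The order of Rxra was DN:HOM, DN:HET, DN:WT, KO:HOM, KO:WT and KO:HET, with each neighbour overlapping the next.

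Rxrb (ENSMUSG00000039656, chr17:34250759-34257376) was lower in homozygotes of both lines. DN:WT livers had 25.6, 34.6 and 39.1 CPM (lowest, median and highest) and DN:HOM livers 24.4, 28.1 and 31.8 CPM. KO:WT livers had 29.7, 32.8 and 35.2 CPM and KO:HOM livers 26.1, 28.8 and 30.6 CPM. Both pairs of ranges overlapped. Its log2 fold change was -0.24 (SE 0.08, adjusted p = 0.0065) in DN:HOM and -0.22 (SE 0.07, adjusted p = 0.025) in KO:HOM. In DN:HOM it was -0.19 (adjusted p = 0.037) with all 48 livers, -0.15 (adjusted p = 0.072) under upper-quartile scaling, -0.20 (adjusted p = 0.072) with each line fitted alone and 0.19 (adjusted p = 0.029), the other direction, with library size alone. The KO:HOM call was lost with all 48 livers (-0.21, adjusted p = 0.067), under upper-quartile scaling, with library size alone and with no low-count filter, and without any 1 of 4 of the 16 KO:WT and KO:HOM livers (KO:WT animals 32 and 33, KO:HOM animals 11 and 27), where it was -0.20 with an adjusted p of up to 0.056.

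Rxrg (ENSMUSG00000015843, chr1:167425673-167467193), best known from muscle and brain, was the scarcest member. DN:WT livers had 5.22, 6.40 and 8.07 CPM and DN:HOM livers 4.02, 4.63 and 6.10 CPM (lowest, median and highest), which overlap. Its log2 fold change was -0.46 (SE 0.15, adjusted p = 0.0090) in DN:HOM and 0.08 (-0.21 to 0.38, adjusted p = 0.75) in KO:HOM. With all 48 livers the DN:HOM value was -0.37 (adjusted p = 0.040), and with library size alone -0.03 (adjusted p = 0.86). Per kilobase, Rxra made up a median of 84.5% of RXR transcripts in DN:WT, 81.5% in DN:HOM, 88.0% in KO:WT and 88.2% in KO:HOM livers. With all livers as labelled the share of Rxra was 84.0% in DN:WT and 81.7% in DN:HOM. Rxrb held 13.7%, 16.1%, 10.5% and 10.4% in these groups, and Rxrg 2.32%, 2.52%, 1.43% and 1.57%. RXRα thus stayed the main RXR transcript in all groups.

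Of the corepressor genes, Ncor1 (ENSMUSG00000018501, chr11:62206297-62349368), the scaffold that binds unliganded receptors, fell in DN:HOM livers. In DN:WT livers there were 71.9, 99.2 and 108 CPM (lowest, median and highest). DN:HET livers had 83.9, 102 and 113 CPM, and DN:HOM livers 67.2, 70.7 and 75.6 CPM. The single DN:WT liver inside the DN:HOM range was the lowest one, and all DN:HET livers lay above that range. The share of all genes whose DN:HOM and DN:HET ranges lay apart was not counted. The log2 fold change was -0.42 (SE 0.09, adjusted p = 1.0e-04), or -0.31 (adjusted p = 0.0068) with all 48 livers, and 0.01 (adjusted p = 0.94) with library size alone. KO:WT livers had 83.6, 95.1 and 122 CPM and KO:HOM livers 93.7, 103 and 113 CPM. The KO:HOM range lay within that of KO:WT, with a log2 fold change of 0.03 (-0.14 to 0.20, adjusted p = 0.85). Ttc19 and Pigl overlap Ncor1 on the opposite strand and share 3714 and 1087 exon bases with it. Ttc19 also fell in DN:HOM (-0.24, adjusted p = 0.015). With unstranded counts Ncor1 was again among the 6 members that passed in DN:HOM.

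Hdac3 (ENSMUSG00000024454, on chromosome 18), the deacetylase of the complex, did not pass the test in any comparison. Its medians lay between 38.7 and 40.9 CPM over the 6 groups, and single livers between 33.5 and 48.5 CPM. The log2 fold change was -0.06 (-0.19 to 0.08, adjusted p = 0.48) in DN:HOM and -0.03 (-0.16 to 0.10, adjusted p = 0.79) in KO:HOM. Gps2 (ENSMUSG00000023170, chr11:69804714-69808899), a small subunit of the complex, did not pass either, with single livers between 12.9 and 22.1 CPM. Its log2 fold change was 0.02 (-0.18 to 0.22, adjusted p = 0.86) in DN:HOM and -0.03 (-0.22 to 0.16, adjusted p = 0.84) in KO:HOM. With all 48 livers Hdac3 had -0.06 (adjusted p = 0.42) and Gps2 0.00066 (adjusted p = 0.996) in DN:HOM. Ranges of all groups overlapped for both genes. Library size alone gave rises of 0.38 for Hdac3 and 0.46 for Gps2 in DN:HOM, near the 0.42 at which it put the median of all genes. Eif5a, an abundant gene on the opposite strand, shares 603 exon bases with Gps2.

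Tbl1xr1 (ENSMUSG00000027630, chr3:22129947-22270770), which helps exchange corepressors for coactivators, was the one member that rose in DN:HOM. Among DN:WT livers it had 28.9, 33.6 and 38.8 CPM (lowest, median and highest), DN:HET 28.1, 33.8 and 36.8, and DN:HOM a lowest of 35.3 and a highest of 41.9. The groups overlapped. The log2 fold change was 0.22 (SE 0.09, adjusted p = 0.043), and it was not called with all 48 livers (0.15, adjusted p = 0.17), with no low-count filter (0.22, adjusted p = 0.067) or without any 1 of 10 of the 14 DN:WT and DN:HOM livers. These were DN:WT animals 7, 13, 17, 21 and 28 and DN:HOM animals 9, 18, 19, 33 and 34, with values of 0.17 to 0.22 and an adjusted p of up to 0.14. In KO:HOM it was -0.01 (-0.19 to 0.16, adjusted p = 0.94). Levels in KO:WT livers spread widely, from 31.1 to 51.8 CPM.

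**Figure D4:**
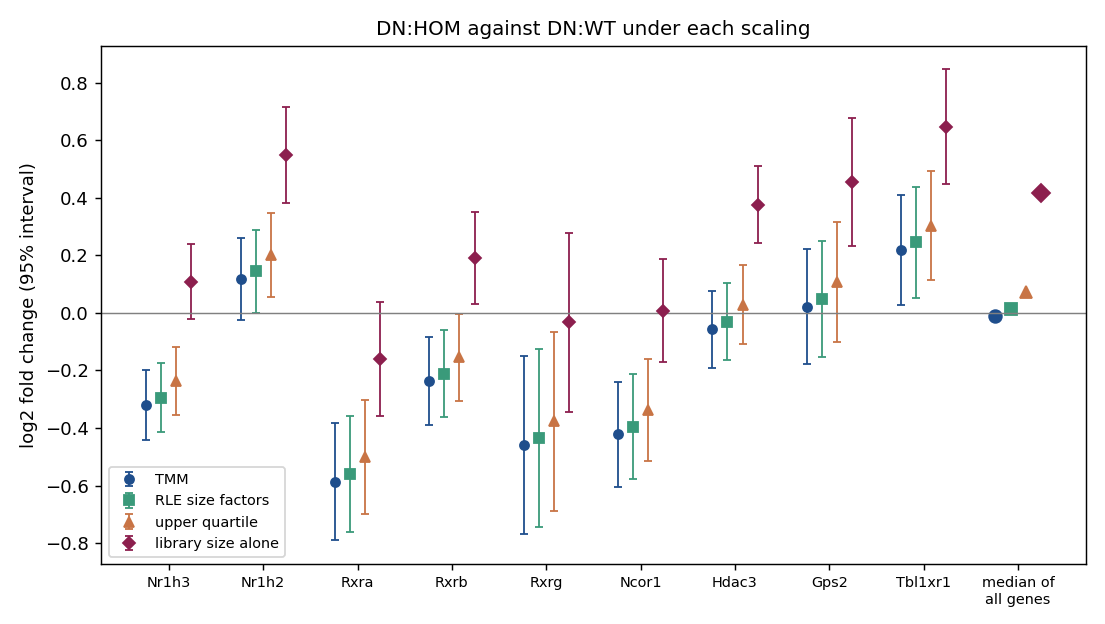
Log2 fold change in DN:HOM against DN:WT (y axis) of each gene and of the median gene (x axis) under TMM, RLE size factors, upper-quartile scaling and library size alone, with 95% intervals for the genes. Library size alone lifts all genes together, and the median of all genes with them to 0.42, while the order of the 9 genes is kept.

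The homozygous effects of the lines were compared directly as a difference of differences, in which 4 of the 9 members passed against 34.7% of all genes. Nr1h3 fell less in DN:HOM than in KO:HOM, by 1.48 (SE 0.08, adjusted p = 1.8e-17). The effect on Rxra was lower in DN:HOM than in KO:HOM, with a difference of -0.46 (SE 0.14, adjusted p = 0.0079), and so were those on Ncor1, with -0.45 (SE 0.12, adjusted p = 0.0039), and Rxrg, with -0.54 (SE 0.21, adjusted p = 0.042). In KO:HOM itself none of these 3 genes passed the test (-0.13 for Rxra, 0.03 for Ncor1 and 0.08 for Rxrg). With all 48 livers, where 10.5% of all genes passed, 1 member was called, Nr1h3 (1.53). The other values kept their sign but were not called, at -0.33 (adjusted p = 0.18) for Rxra, -0.35 (adjusted p = 0.083) for Ncor1 and -0.45 (adjusted p = 0.16) for Rxrg. Library size alone, which put the median of all genes at 0.31 in this contrast, also ended these 3 calls, at -0.15 (adjusted p = 0.37) for Rxra, -0.13 (adjusted p = 0.37) for Ncor1 and -0.23 (adjusted p = 0.40) for Rxrg, while Nr1h3 was called at 1.79. The Rxrg call was not made under upper-quartile scaling, with no low-count filter or with unstranded counts (-0.54 to -0.48, adjusted p = 0.058 to 0.086). It was also lost without any 1 of 13 livers among the 30 left out in turn (-0.55 to -0.46, adjusted p up to 0.088). These were DN:WT animals 13 and 28, DN:HOM animals 9, 18, 33 and 34, KO:WT animals 5, 31 and 34, and KO:HOM animals 20, 22, 26 and 27. Rxrb differed by -0.02 (-0.23 to 0.19, adjusted p = 0.91) and Tbl1xr1 by 0.23 (-0.03 to 0.49, adjusted p = 0.16). With library size alone both were called as higher, along with Nr1h2, Gps2 and Hdac3.

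In heterozygotes, Nr1h3 in KO:HET was the single member called. It stood among 3 genes called in all, 0.0191% of those tested. In DN:HET 0 of the 9 members passed the edgeR test, against 2.30% of all genes. That background depends on the fit, with 361 genes called here, 39 with all 48 livers and 5 of 13869 when only these groups were fitted. No member had an unadjusted p under 0.05 there, and DESeq2 called 0 as well. None of the members had DN:HET and DN:WT ranges that lay apart, against 0.191% of all genes. The intervals of the members in DN:HET reached from -0.34 to 0.26 (log2), both ends being those of Rxrg.

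Wild-type livers of the lines were compared to show how far levels differ without the mutations. KO:WT against DN:WT called 2 of 9 members, where 12% of all genes passed. Rxra was higher in KO:WT by 0.36 (SE 0.10, adjusted p = 0.0098) and Tbl1xr1 by 0.32 (SE 0.09, adjusted p = 0.015). The Tbl1xr1 call was lost when only these groups were fitted (0.32, adjusted p = 0.079), with library size alone (0.27, adjusted p = 0.059), where Rxrg was called instead (-0.44, adjusted p = 0.048), and without any 1 of 3 of the 15 livers (DN:WT animal 21, KO:WT animals 33 and 34), where it was 0.26 to 0.28 with an adjusted p of up to 0.058. Nr1h3 differed by 0.04 (-0.08 to 0.16, adjusted p = 0.76) and Nr1h2 by -0.10 (-0.24 to 0.04, adjusted p = 0.37). Rxra was thus lower in the knock-in line before any comparison with mutant livers, and line and site cannot be told apart here.

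Other genes of the pathway were read from lists chosen with earlier results of these data known, in the same fit. Among 10 further corepressor genes, 3 rose and 0 fell in DN:HOM, where 4579 of all 15711 genes rose and 4713 fell, and 1 rose in KO:HOM, where 1811 rose and 1237 fell. Scaling by library size alone gave 9283 rises and 1738 falls over all genes in DN:HOM and 2622 and 437 in KO:HOM, and with it 10 of the 10 corepressor genes rose in DN:HOM. Upper-quartile scaling gave 5326 rises and 3920 falls in DN:HOM and 1933 and 847 in KO:HOM. The median log2 fold change of the list was 0.09 in DN:HOM and 0.05 in KO:HOM, against -0.01 and -0.02 over all genes. Coro2a, an actin-binding subunit of the NCoR complex, rose in both (1.56, SE 0.37, adjusted p = 0.00038 in DN:HOM and 1.23, SE 0.35, adjusted p = 0.0098 in KO:HOM). The class I deacetylases Hdac1 (0.43, adjusted p = 9.1e-06) and Hdac2 (0.18, adjusted p = 0.031) rose in DN:HOM, though Hdac2 was not called with all 48 livers (0.09, adjusted p = 0.34). Of these, the difference between the lines passed for Hdac1 (0.34, adjusted p = 0.013), though not with all 48 livers. Neither gene passed in KO:HOM. In the fit of all 48 livers 2 of the 10 rose in DN:HOM, Hdac1 (0.34, adjusted p = 0.00070) and Coro2a (1.12, adjusted p = 0.011).

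Coactivators were read in the same way. Among 12 genes, 0 rose and 5 fell in DN:HOM (list median -0.09), where 59.1% of all genes passed, and 1 fell in KO:HOM (list median -0.02), where 19.4% passed. Ppargc1b, encoding PGC-1β, a coactivator of lipogenic and mitochondrial genes, fell in both lines (-0.75, adjusted p = 0.0067 in DN:HOM and -0.71, adjusted p = 0.017 in KO:HOM). Kmt2c, a histone methyltransferase (-0.42, adjusted p = 4.9e-05), and Ncoa1, encoding SRC-1 (-0.32, adjusted p = 0.0022), fell in DN:HOM, and both turned sign with library size alone (0.01 and 0.11, neither called). The others that fell were Ncoa2 and Med1, named here after their values were seen. Of the 12 genes, 4 fell in DN:HOM with all 48 livers, among them Ppargc1b (-0.66, adjusted p = 0.017), Kmt2c (-0.33, adjusted p = 0.0023) and Ncoa1 (-0.24, adjusted p = 0.029).

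Among 12 other receptors that pair with RXR, 3 rose and 4 fell in DN:HOM (list median 0.02) and 2 rose and 1 fell in KO:HOM (list median -0.08). These counts are near the 59.1% and 19.4% of all genes that passed, so they are no result about the receptors as a list. Ppara, the receptor that drives fatty acid oxidation, fell by 1.47 on the log2 scale in DN:HOM (SE 0.17, adjusted p = 5.7e-10) and had -0.21 (adjusted p = 0.36) in KO:HOM. Nr1i3, encoding the xenobiotic receptor CAR, fell by 1.03 in DN:HOM (SE 0.20, adjusted p = 2.4e-05) and had 0.14 (adjusted p = 0.64) in KO:HOM. The difference between the lines passed for both (adjusted p = 2.7e-05 for Ppara and 0.00072 for Nr1i3). With all 48 livers it passed for Nr1i3 but not for Ppara. Rarg, a retinoic acid receptor, rose in both (1.78 and 0.58, adjusted p = 2.1e-13 and 0.0026). Thrb, the hepatic thyroid hormone receptor, fell in both (-0.69 and -0.30, adjusted p = 2.7e-08 and 0.0095), the latter not called with all 48 livers at the same -0.30 (adjusted p = 0.065). The remaining calls, named after their values were seen, were Nr1h4, which fell, and Rarb and Vdr, which rose, in DN:HOM, and Vdr, which rose, in KO:HOM. When all 48 livers were fitted 2 rose and 4 fell in DN:HOM, with -1.07 for Ppara (adjusted p = 0.00017), -0.81 for Nr1i3 (adjusted p = 0.0027), 1.39 for Rarg (adjusted p = 2.2e-05) and -0.52 for Thrb (adjusted p = 0.00030).

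Enzymes that make or remove oxysterol ligands numbered 7, of which 6 had enough reads to be tested. In DN:HOM 2 rose and 3 fell (list median -0.86), and in KO:HOM 1 rose and 1 fell (list median -0.14), against 59.1% and 19.4% of all genes that passed. Cyp27a1, which makes 27-hydroxycholesterol, fell by 1.21 in DN:HOM (adjusted p = 6.0e-11) and by 0.40 in KO:HOM (adjusted p = 0.012). Cyp46a1, the 24-hydroxylase best known from brain, fell by 2.44 in DN:HOM (adjusted p = 1.4e-07) and had -0.29 (adjusted p = 0.55) in KO:HOM. The difference between the lines was -2.16 (adjusted p = 0.00028), and it was not called with all 48 livers. Cyp3a11, a drug-metabolising enzyme that also hydroxylates sterols, rose by 1.14 in DN:HOM (adjusted p = 7.8e-07) and 2.35 in KO:HOM (adjusted p = 3.7e-13). Ch25h, which rose, and Hsd3b7, which fell, complete the DN:HOM calls and are named after their values were seen. Again 2 rose and 3 fell in DN:HOM with all 48 livers, with values of -0.87 for Cyp27a1 (adjusted p = 0.00019), -1.68 for Cyp46a1 (adjusted p = 0.0019) and 0.83 for Cyp3a11 (adjusted p = 0.0010), while Cyp27a1 was no longer called in KO:HOM (-0.39, adjusted p = 0.14).

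Genes whose log2 CPM followed a member most closely over the 46 livers were sought among 11709 tested genes. For Nr1h3 they were Nsmf (Pearson r = 0.751), Pter (0.741) and Frrs1 (0.727). For Nr1h2 they were Znrf1 (0.742), Zdhhc18 (0.711) and Sirt6 (0.703). For Rxra they were Fgf1 (0.924), Sec14l4 (0.922) and Itch (0.915), so the closest likeness was that of Rxra. The livers share genotype, line and site, so these values are a description and carry no test. Fgf1, a fibroblast growth factor gene, had a log2 fold change of -1.64 in DN:HOM (adjusted p = 1.13e-11) and was 1.02 higher in KO:WT than in DN:WT livers (adjusted p = 1.26e-05).

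Transcripts that mark cell types also differed between these groups, where 59.1% of all genes passed in DN:HOM and 19.4% in KO:HOM. Hepatocyte markers (7 genes found of 8 names, among them Alb) summed to 63745 to 78935 CPM in DN:WT and 38321 to 46152 CPM in DN:HOM livers, and 74250 to 96282 CPM in KO:WT and 55253 to 76297 CPM in KO:HOM livers, so they were abundant in every liver. Of these genes 4 fell in DN:HOM and 3 in KO:HOM. Alb, the most abundant (mean log2 CPM 15.4, the next being Apoa1 at 12.7), weighs most in these sums. It had a log2 fold change of -1.14 in DN:HOM, where the list median was -0.34. Fgb (0.07), Ahsg (0.20) and Hnf4a (-0.15) were not called there. Macrophage markers summed to 225 to 417 CPM in DN:WT and 1268 to 2003 CPM in DN:HOM livers, with 8 of 8 genes higher. In KO:WT they summed to 154 to 366 CPM and in KO:HOM to 434 to 1686 CPM, with 7 of 8 higher. Cholangiocyte markers summed to 6.54 to 10.2 CPM in DN:WT and 47.0 to 62.7 CPM in DN:HOM livers, with 4 of 4 higher, while in KO:HOM 0 of 4 were called by edgeR. Stellate cell markers rose in 5 of 6 genes in DN:HOM and 2 of 6 in KO:HOM, neutrophil markers in 3 of 3 in both, and T cell markers in 3 of 5 and 5 of 5. The shares of hepatocyte (4 of 7) and T cell (3 of 5) markers called in DN:HOM are near that of all genes. Of 4 endothelial markers 3 fell in DN:HOM, while 1 rose and 1 fell in KO:HOM, and of 3 B cell markers 1 fell in DN:HOM and 0 were called in KO:HOM. In DN:HET, where 2.30% of all genes passed, 3 of 8 macrophage, 3 of 5 T cell and 1 of 3 neutrophil markers were higher. The other lists had no call there, and the fit of all 48 livers called only the T cell markers Cd3g and Cd3e. No marker was called in KO:HET. With all 48 livers DN:HOM had 6 of 8 macrophage, 4 of 4 cholangiocyte, 4 of 6 stellate cell, 2 of 3 neutrophil and 0 of 5 T cell markers higher, and 4 of 7 hepatocyte, 3 of 4 endothelial and 0 of 3 B cell markers lower. In KO:HOM the same fit had 2 of 7 hepatocyte markers lower and 0 of 6 stellate cell and 1 of 3 neutrophil markers higher. Where edgeR called 0 in that fit, the unadjusted p was under 0.05 for 2 T cell markers and 1 B cell marker in DN:HOM and for 2 stellate cell markers in KO:HOM. With DN:WT animal 10 and DN:HOM animal 12 included, macrophage sums were 225 to 1898 CPM in DN:WT and 241 to 2003 CPM in DN:HOM livers. No marker was at 0 in every liver of a group. In whole liver, fewer cells of a type and less RNA per cell cannot be told apart, and the part of any change in cell mixture in the values of Rxra, Ncor1 and the other members was not tested.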

How the data were processed

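Liver RNA of 48 mice was sequenced from stranded mRNA libraries. Per the submitters' processing notes the authors used STAR 2.5.0a and GRCm39. They deposited raw counts of reads per gene, not normalized, in columns without strand and by strand. The sense column was taken, 6.97 to 8.62 times the antisense total in each liver. Lines naming no gene (24.0% to 35.0% of reads) were dropped. Symbols, exon lengths and coding bases came from GENCODE, a later release than that of the alignment, which held 54749 (98.8%) of the identifiers. Groups came from the labels. Matching count ratios to the study's source data showed which livers it held, and DN:WT animal 10 and DN:HOM animal 12 were not among them.

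Members and lists were chosen with earlier results of these data known. A gene of the oxysterol enzyme list is not reported here. edgeR 4.0.16 (R 4.3.3) was fitted to 6 group means after filterByExpr and TMM scaling, and quasi-likelihood p-values were adjusted by Benjamini-Hochberg over 15711 genes (threshold 0.05). CPM were scaled by TMM over all 48 livers. The procedure was tested on simulated data. Named were the 9 members, genes overlapping them, the 3 genes most like Nr1h3, Nr1h2 and Rxra (log2 CPM with a prior count of 2, mean above 1), and in each pathway list up to 3 genes per homozygous comparison with the largest change among those past the threshold and a mean log2 CPM above 0.

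Alternatives were all 48 livers, no livers of lowest depth, DESeq2 1.42.0, RLE, upper-quartile and library-size scaling, other low-count filters, unstranded counts, only the groups compared, and each line alone. Leaving out single livers, canonical transcript lengths, and shares, ratios, lists and markers over all 48 livers were chosen after seeing the data.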

Additional observations from a re-analysis of the deposited data

Results flagged for a closer look

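Among the 54 sets of 8 livers (9 genes in 6 groups as labelled), 3 livers stood far from the others, and such a liver turns up by chance in about 1 of 20 sets. DN:WT animal 10 had 186 CPM of Rxra, the lowest of its group. DN:HOM animal 12 had 105 CPM of Ncor1, the highest of its group. These are the livers left out of the main fits. DN:HET animal 20 had 28.1 CPM of Tbl1xr1, the lowest of its group, and it was kept. The homozygous effects of the lines differed by the test of the difference itself for Nr1h3 (1.48), Rxra (-0.46), Ncor1 (-0.45) and Rxrg (-0.54), with edgeR adjusted p of 1.8e-17, 0.0079, 0.0039 and 0.042.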

How the results depend on the processing

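DN:HOM against DN:WT called 5 or 6 members and DN:HET 0 under each edgeR and DESeq2 alternative, but with library size alone all 5 calls were rises. KO:HOM called 1 in place of 2 with all 48 livers, upper-quartile scaling, library size alone and no low-count filter. The difference of homozygous effects called 1 in place of 4 with all 48 livers (10.5% of all genes in place of 34.7%). With library size alone it called 6, all higher, where 7265 of 15711 genes passed, 5929 of them higher. KO:WT against DN:WT called 1 in place of 2 when only these groups were fitted. Without single livers the counts were 5 to 6 in DN:HOM, 1 to 2 in KO:HOM, 3 to 4 for the difference and 1 to 2 for wild-type livers. Nr1h2 passed in DN:HOM at 0.20 (upper quartile), 0.16 (each line alone) and 0.55 (library size alone), and in the difference at 0.39 (library size alone).

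Signs turned with library size alone, which puts the median gene of DN:HOM at 0.42, for Nr1h3 (0.11), Rxrb (0.19), Ncor1 (0.0081), Hdac3 (0.38), Kmt2c (0.013) and Ncoa1 (0.11) in DN:HOM, Rxrg (0.016) and Gps2 (0.022) in DN:HET, Hdac3 (0.085), Gps2 (0.081), Tbl1xr1 (0.10) and Kmt2c (0.060) in KO:HOM, Rxrb (0.29) and Hdac3 (0.29) in the difference, and Nr1h3 (-0.017) between wild-type livers. The other sign changes were of values not called. They came with all 48 livers for Rxra (0.021), Rxrg (0.029) and Tbl1xr1 (-0.025) in DN:HET and Rxrb in the difference (0.018) and between wild-type livers (0.049), and with upper-quartile scaling for Rxrb (0.032) and Hdac3 (0.026) in the difference and Hdac3 in DN:HOM (0.029) and, with Tbl1xr1, in KO:HOM (0.0032 and 0.019). Unstranded counts turned Rxrb between wild-type livers (0.00093) and Gps2 in KO:HOM (0.0073), and a mean CPM of at least 1 turned Tbl1xr1 in KO:HOM (0.0024).

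Without single livers, values that changed sign ranged from -0.096 to 0.011 (Rxrb, difference), -0.066 to 0.032 (Rxrb, wild-type livers), -5.4e-05 to 0.14 (Rxrg, KO:HOM), -0.0057 to 0.075 (Ncor1, KO:HOM), -0.057 to 0.0012 (Hdac3, KO:HOM), -0.063 to 0.0078 (Hdac3, wild-type livers), -0.040 to 0.059, -0.080 to 0.0086 and -0.013 to 0.10 (Gps2, DN:HOM, KO:HOM and difference) and -0.066 to 0.043 (Tbl1xr1, KO:HOM). None of these was called. The cause was not tested. In DN:HOM the SE was 0.15 for Rxrg, the scarcest member, and 0.06 for Nr1h3.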
